A study of Mus musculus with 10 samples.

Results

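Chemokines are small secreted proteins that direct the migration of white blood cells, and they act through receptors of the G protein-coupled class on the cells they attract. They are grouped by the spacing of their first cysteines into CC, CXC and CX3C families, and many bind several receptors. In the liver they are made by hepatocytes, Kupffer cells (the resident macrophages), endothelial cells and stellate cells, and they draw in monocytes, neutrophils and T cells. Genes of several inflammatory chemokines carry binding sites for NF-kB and for AP-1, the factor of which cJun is a subunit, in their promoters.

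The 48 genes described here were chosen by a rule on their names. Each has a single symbol in the platform annotation that starts with Ccl, Cxcl, Cx3cl, Ccr, Cxcr or Cx3cr followed by a digit, and the 48 were found among 18193 genes with a single symbol. They comprise 32 ligand and 16 receptor genes and have 76 probe sets. A further 4 probe sets carry several symbols, at least one of them of this family, and were left out.

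Liver RNA of 10 mice was measured on 10 Affymetrix expression arrays, 1 mouse to an array. All 10 mice, the controls included, are labelled ApoE-/-. The 5 control mice (replicates 11 to 15) had been infected with an adenovirus that carries GFP, a fluorescent protein, and the 5 mice labelled dn-cJun (replicates 16 to 20) with an adenovirus that carries a dominant negative form of cJun. The age and sex of the mice, the time after infection and the promoter that drives the virus insert are absent from the labels.

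Array medians of the deposited intensity ran from 85.3 to 127, and any 2 arrays had a correlation of 0.948 to 0.965 after normalization. The label ApoE-/- was not borne out in 1 group: the Apoe signal was 9.42 to 10.94 on the log2 scale in the controls, against 15.31 to 15.82 among the arrays labelled dn-cJun. The groups therefore differ in Apoe signal as well as in the virus. Jun was at 10.18 to 10.73 in the controls, against 9.84 to 10.82 among the arrays labelled dn-cJun, and whether its probe sets read the virus insert is not given. Controls 14 and 15 stand apart from the other 8 arrays in sex-linked RNA. Xist, which coats the silenced X chromosome, was at 13.71 and 13.63 in them against 5.90 to 6.72 elsewhere. Eif2s3y, a gene of the Y chromosome, was at 5.22 and 4.08 in them against 10.58 to 11.13 elsewhere. By these signals controls 14 and 15 read as female and the other 8 arrays, all those labelled dn-cJun included, as male. Sex is therefore not balanced between the groups. The counts over all members and the values of several members below are therefore also given without controls 14 and 15. Differences of pathway genes and cell markers are given with all arrays only. Alb, the albumin gene that defines hepatocytes, had signals of 15.66 to 15.85 on all arrays.

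All signals below are log2(intensity + 16) after quantile normalization, and a difference is the mean of the arrays labelled dn-cJun minus the mean of the controls on that scale, which understates changes of dim genes. A level is compared only for the same gene between arrays, since probe sets of different genes do not share a scale. Genes whose mean signal was below 6.06, a level that 40% of the probe sets did not reach, were left untested. Of the 48 genes 30 were tested, 23 ligands and 7 receptors. In each of the 30, both group means were above that level.

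No chemokine or receptor gene passed the threshold of an adjusted p of 0.05 (limma, adjusted over 12736 genes). The 2 genes nearest to it were Ccl2 and Cxcl2, ligands that attract monocytes and neutrophils, whose mean signals were lower by a log2 difference of about 1 among the arrays labelled dn-cJun. Over all genes tested, 0.777% passed, 0.432% as lower and 0.345% as higher. By the brightest probe set of each gene, 6 of the 30 members were lower and 0 higher at an unadjusted p under 0.05. Of all genes tested, 7.47% were lower and 7.42% higher at that p. The 6 were Ccl2, Cxcl2, Ccl9, Ccl6, Ccl7 and Cxcl1, all of them ligands. In all, 21 members were below 0 and 9 above, with a median difference of -0.21, where 49.7% of all genes tested were below 0 and their median was 0.0015. Members are not independent of one another, and no test was made of the list as a whole.

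**Figure D1:**
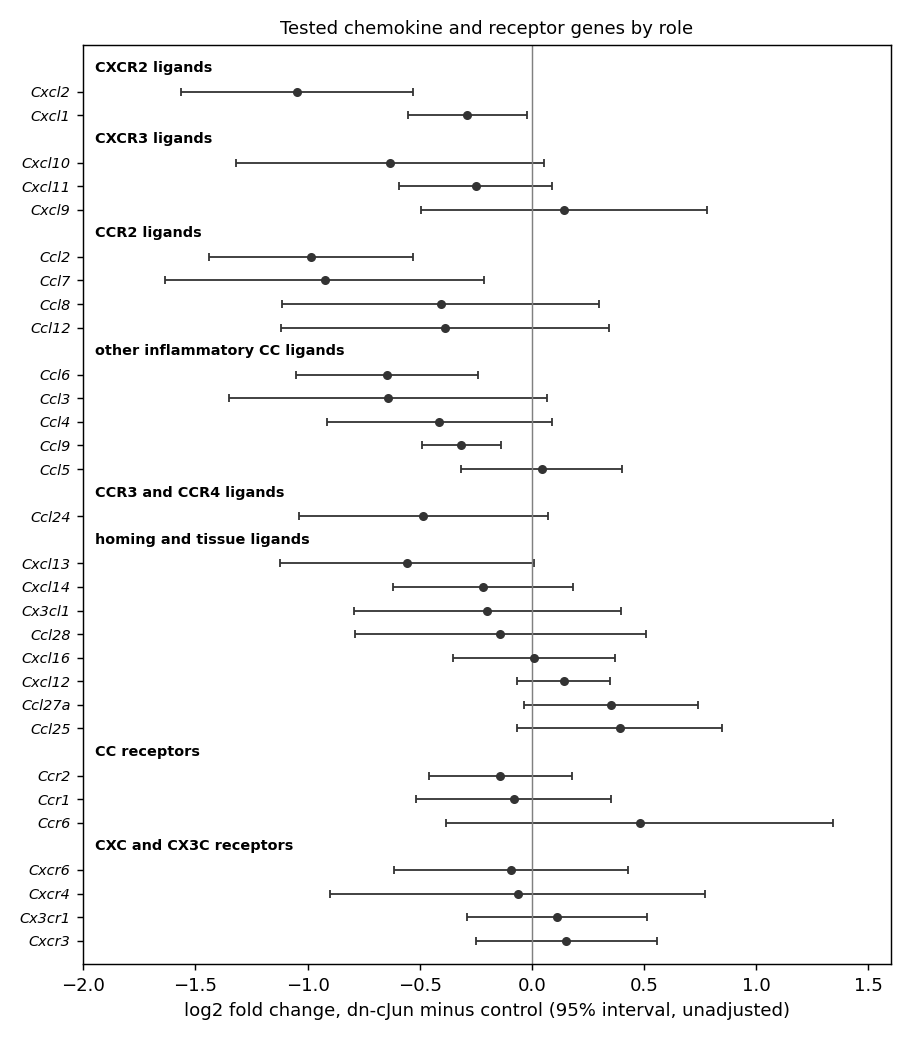
Difference in log2 signal (arrays labelled dn-cJun minus control, n = 5 each) with its unadjusted 95% interval for the 30 tested genes, grouped by role. The intervals of Cxcl2, Cxcl1, Ccl2, Ccl7, Ccl6 and Ccl9 lie below 0 and those of the 7 receptors include 0.

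The 4 genes listed here as ligands of CCR2, the receptor that brings monocytes out of the bone marrow and into inflamed tissue, were all on the lower side. Ccl2, the main attractant of inflammatory monocytes, had signals of 8.97, 8.36, 9.12, 9.21 and 9.14 in controls 11 to 15 and of 7.41, 7.78, 8.24, 8.52 and 7.94 in arrays 16 to 20. Control 12 was the only control within the range of the other group, below array 19, so the groups overlapped. The means were 8.96 ± 0.35 (SD, n = 5) and 7.98 ± 0.43 (SD, n = 5). This is a 1.98-fold lower signal, at a difference of -0.98 (SE 0.21, 95% interval -1.44 to -0.53, limma adjusted p = 0.0524). The call turns on the setting: the adjusted p was 0.0125 to 0.166 over 13 other settings, under 0.05 in 6 of them, and 0.0180 without control 12. Without controls 14 and 15 the difference was -0.84 (limma adjusted p = 0.166).

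Ccl7, the neighbour of Ccl2 on its chromosome and a ligand of CCR1, CCR2 and CCR3, had a difference of nearly the same size and a wider spread. Its signals were 6.46, 6.65, 7.06, 7.76 and 7.82 in controls 11 to 15 and 6.51, 6.29, 5.34, 6.55 and 6.44 in arrays 16 to 20. The difference was -0.92 (SE 0.33, 95% interval -1.64 to -0.21, limma adjusted p = 0.215). Controls 14 and 15 were the highest of all arrays, and control 11 was within the range of the arrays labelled dn-cJun. Without controls 14 and 15 the difference was -0.49, with an interval of -1.25 to 0.27. Ccl12, a mouse CCR2 ligand related to Ccl2, was at 7.90 and 8.38 in these controls, 6.56 to 6.95 in controls 11 to 13 and 6.46 to 7.22 among the arrays labelled dn-cJun. Its difference was -0.39 (SE 0.34) with all arrays and 0.18 (SE 0.26) without those 2. Ccl8, another monocyte attractant of this gene cluster, was at -0.41 (SE 0.33), with array 20 the highest of all 10 at 7.89. In the gene order Ccl2, Ccl7, Ccl11, Ccl12, Ccl8, Ccl1 of RefSeq, the first 2 thus had the differences furthest from 0. Ccl11, an eosinophil attractant, and Ccl1 were below the test level, with differences of 0.04 and 0.19.

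Of the 5 genes listed here as ligands of CXCR2, the neutrophil receptor, 2 were tested. Cxcl2 had signals of 7.94, 7.37, 7.81, 7.44 and 7.50 in controls 11 to 15 and of 5.95, 6.26, 6.51, 7.04 and 7.06 in arrays 16 to 20. All 5 controls lay above all 5 arrays labelled dn-cJun, a separation seen as lower in 2 of the 30 members and in 2.13% of all genes tested, and as higher in 0 members and 2.1%. The means were 7.61 ± 0.25 (SD, n = 5) and 6.56 ± 0.49 (SD, n = 5), a 2.07-fold lower signal. The difference was -1.05 (SE 0.24, 95% interval -1.56 to -0.53, limma adjusted p = 0.0614), and -1.13 without controls 14 and 15 (limma adjusted p = 0.121). With 1 array left out in turn it was -1.18 to -0.89, and none of these 10 fits gave an adjusted p under 0.05.

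Cxcl1, its close relative in the same gene cluster, was read by 3 probe sets that differed. The one with the highest mean was at 11.11, 10.85, 10.47, 10.62 and 11.09 in controls 11 to 15 and 10.36, 10.53, 10.56, 10.70 and 10.56 in arrays 16 to 20. That difference was -0.29 (SE 0.12, limma adjusted p = 0.296), and the groups overlapped through controls 13 and 14. A second probe set gave -0.38 (SE 0.10) with groups that did not overlap, and the last one gave -0.01 (SE 0.14). Cxcl3, Cxcl5 and Cxcl15, the others of the 48 genes in this cluster, were below the test level, with differences of -0.11, -0.17 and 0.12.

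The promoters of Cxcl1 and Cxcl2 are shown because these neighbours share a pair of matches to the NF-kB motif. RefSeq promoters (build GRCm38.p6) were matched for 35 of the 48 genes and read over the 250 bases before the start site, on the gene's strand, 5′ to 3′. Capitals mark matches, on either strand, to 1 of 3 motifs. The NF-kB motif reads GGG, any 2 bases, TT, any base, CC. The AP-1 motif was searched as TGANTCA, where N is any base, and the interferon-response motif reads GAAA, any 2 bases, GAAA. Overlapping matches are each counted.
Cxcl1, chr5:90890995-90891244, plus strand: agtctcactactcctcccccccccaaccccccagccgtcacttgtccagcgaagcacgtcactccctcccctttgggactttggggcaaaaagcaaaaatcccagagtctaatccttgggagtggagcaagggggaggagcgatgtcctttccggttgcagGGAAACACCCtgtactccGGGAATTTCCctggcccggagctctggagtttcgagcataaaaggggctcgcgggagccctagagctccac
Cxcl2, chr5:90903649-90903898, plus strand: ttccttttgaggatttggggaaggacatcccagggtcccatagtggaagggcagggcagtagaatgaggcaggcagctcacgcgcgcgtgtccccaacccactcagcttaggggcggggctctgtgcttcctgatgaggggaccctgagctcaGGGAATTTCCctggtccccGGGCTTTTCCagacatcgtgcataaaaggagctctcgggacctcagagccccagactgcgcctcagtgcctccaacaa

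Both windows hold 2 NF-kB matches and 0 AP-1 matches. Windows with an NF-kB match made up 4.11% of all 32851 promoters and 23.1% of the 39 member promoters. They belonged to 9 of the 35 matched members: Cxcl1, Cxcl2, Cxcl3, Cxcl9, Cxcl10, Ccl9, Ccl20, Ccr3 and Ccr6. The AP-1 motif as searched was present in 6.75% of all promoters and 12.8% of member promoters. These belonged to 5 of the 35 matched members, Ccl9, Cxcl10, Ccl27a, Ccr3 and Ccr4. No promoter was matched for Ccl2 or Ccl7, so neither was searched. The matches are of letters and say nothing of binding in these livers.

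**Figure D2:**
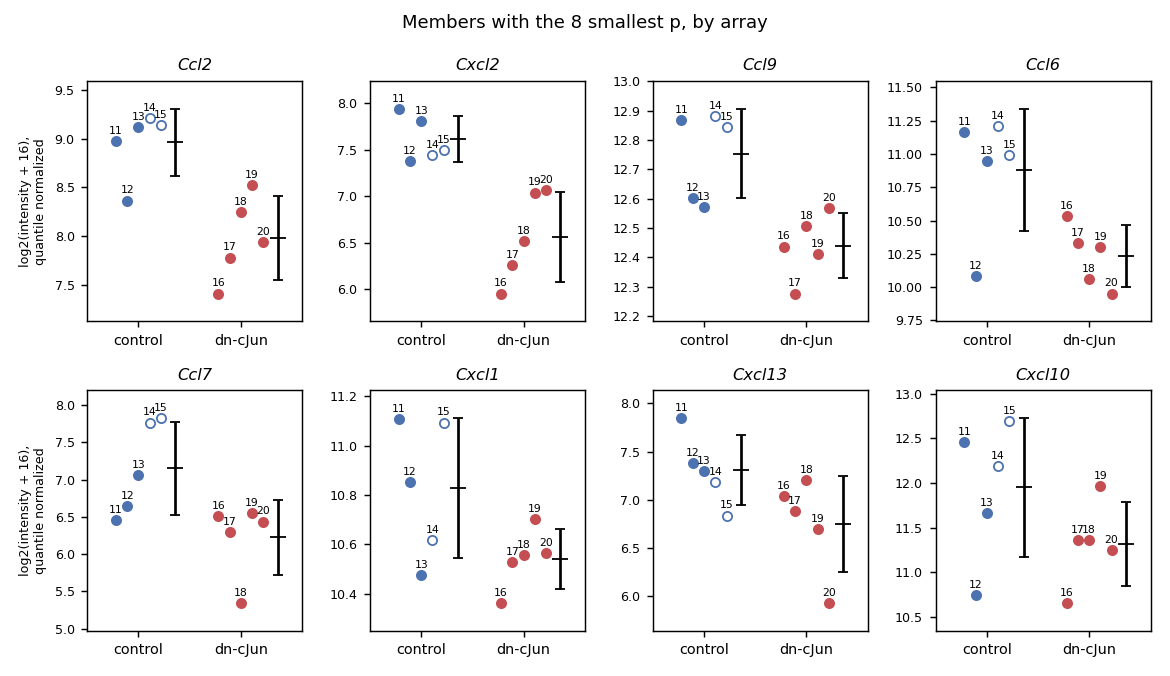
Log2 signal of the 8 tested members with the smallest p, by array. Points are single mice with their replicate number, open points are controls 14 and 15, and bars give the mean and SD of each group (n = 5). Cxcl2 and Ccl9 are the genes whose groups do not overlap, and control 12 is the lowest control for Ccl2, Cxcl2, Ccl6 and Cxcl10.

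Among the other inflammatory CC ligands, which attract monocytes, macrophages and T cells, 4 of 5 genes had a difference below 0 and none passed the threshold. Ccl9, which macrophages and other myeloid cells make, was at 12.87, 12.60, 12.57, 12.88 and 12.84 in controls 11 to 15 and 12.44, 12.28, 12.51, 12.41 and 12.57 in arrays 16 to 20. The groups did not overlap, though control 13 and array 20 both round to 12.57. The difference was small and its spread narrow, at -0.31 (SE 0.08, 95% interval -0.49 to -0.14, limma adjusted p = 0.103). The second Ccl9 probe set also did not overlap and gave -0.40 (SE 0.10). Without controls 14 and 15 the first was at -0.25 (SE 0.09).

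Ccl6, its neighbour and also a myeloid ligand, was at 11.17, 10.08, 10.95, 11.21 and 10.99 in controls 11 to 15 and 10.53, 10.33, 10.06, 10.30 and 9.95 in arrays 16 to 20. Of the controls, 4 lay above all arrays labelled dn-cJun and control 12 lay among them. The difference was -0.65 (SE 0.19, limma adjusted p = 0.141). It was -0.84 without control 12 (limma adjusted p = 0.00889) and -0.50 without controls 14 and 15 (limma adjusted p = 0.320). The second Ccl6 probe set gave -0.30 (SE 0.18).

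Ccl3 and Ccl4, ligands made by activated macrophages and lymphocytes, spread widely among the arrays labelled dn-cJun. Ccl3 was at 6.81 to 7.69 in the controls, against 5.57 to 7.43 in the other group, a difference of -0.64 (SE 0.33). Ccl4 was at 7.99 to 8.25 in the controls, while arrays 16, 18 and 20 were at 7.38, 7.15 and 7.41 and arrays 17 and 19 at 8.10 and 8.54. Its difference was -0.41 (SE 0.23). Ccl5, which T cells and NK cells make, was at 9.09 to 9.55 in the controls, against 8.87 to 9.93 among the arrays labelled dn-cJun. Its difference was 0.04, with a 95% interval of -0.31 to 0.40.

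Ccl9 is shown because its promoter window, unlike those of Cxcl1 and Cxcl2, holds 1 AP-1 match beside 1 NF-kB match. The AP-1 match begins 53 bases and the NF-kB match 35 bases before the start site. That AP-1 match reads TGAATCA, while those of Cxcl10, Ccl27a, Ccr3 and Ccr4 read TGAGTCA or TGACTCA.
Ccl9, chr11:83578637-83578886, minus strand: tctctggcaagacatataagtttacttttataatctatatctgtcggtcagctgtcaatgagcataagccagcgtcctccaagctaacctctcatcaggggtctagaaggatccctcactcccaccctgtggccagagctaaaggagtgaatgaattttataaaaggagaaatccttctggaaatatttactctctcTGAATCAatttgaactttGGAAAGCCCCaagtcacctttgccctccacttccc

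The ligands of CXCR3, a receptor of T cells and NK cells, are induced by interferon gamma, and their signals varied more within the groups than between them. Cxcl9 had signals of 13.37, 12.38, 12.93, 13.97 and 14.13 in controls 11 to 15 and 13.08, 13.45, 13.12, 14.11 and 13.73 in arrays 16 to 20. The means were 13.35 ± 0.72 (SD, n = 5) and 13.50 ± 0.43 (SD, n = 5). The difference was 0.14 (SE 0.30, 95% interval -0.50 to 0.78, limma adjusted p = 0.864), and the second Cxcl9 probe set gave -0.24 (SE 0.30). Controls 14 and 15 were the highest controls. Without them the difference by the first probe set was 0.61 (SE 0.24, 95% interval 0.08 to 1.14, limma adjusted p = 0.292). Cxcl9 was then the only member above 0 with an unadjusted p under 0.05, where 7.03% of all genes were. The second probe set was not fitted without controls 14 and 15. By it controls 11 to 13 were at 9.83, 8.80 and 9.43, against 8.91 to 10.27 in the other group.

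Cxcl10 had signals of 12.46, 10.74, 11.67, 12.19 and 12.69 in controls 11 to 15 and 10.65, 11.36, 11.36, 11.97 and 11.25 in arrays 16 to 20. Control 12 was low and close to array 16, and array 19 was above control 13. The difference was -0.63 (SE 0.32, 95% interval -1.32 to 0.06, limma adjusted p = 0.379), and -0.30 without controls 14 and 15. Cxcl11 was at 8.50, 8.50, 8.54, 9.01 and 9.15 in controls 11 to 15 and 8.27 to 8.76 in the other group. Its difference was -0.25 (SE 0.16) with all arrays and -0.02 (SE 0.15) without controls 14 and 15. Cxcr3, the receptor of these ligands, was at 7.32 to 8.09 in the controls, against 7.53 to 8.12 in the other group, a difference of 0.15 (SE 0.19). Without controls 14 and 15 it was 0.39 (SE 0.19).

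The promoters of the neighbours Cxcl9 and Cxcl10 are shown because they encode ligands of the same receptor and hold different motif matches. The Cxcl10 window is the one member window that holds all 3 motifs, with the interferon-response match beginning 213, the NF-kB match 103 and the AP-1 match 74 bases before the start site. The Cxcl9 window holds 1 NF-kB match, which begins 130 bases before it. The interferon-response motif was present in 2.98% of all promoters and 5.13% of member promoters. These belonged to 2 of the 35 matched members, Cxcl10 and Cxcl14.
Cxcl9, chr5:92328080-92328329, minus strand: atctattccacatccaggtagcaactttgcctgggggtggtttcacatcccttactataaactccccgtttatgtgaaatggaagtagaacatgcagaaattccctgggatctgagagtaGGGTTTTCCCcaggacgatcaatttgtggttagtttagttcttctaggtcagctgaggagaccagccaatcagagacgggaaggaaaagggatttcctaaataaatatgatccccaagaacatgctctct
Cxcl10, chr5:92348890-92349139, minus strand: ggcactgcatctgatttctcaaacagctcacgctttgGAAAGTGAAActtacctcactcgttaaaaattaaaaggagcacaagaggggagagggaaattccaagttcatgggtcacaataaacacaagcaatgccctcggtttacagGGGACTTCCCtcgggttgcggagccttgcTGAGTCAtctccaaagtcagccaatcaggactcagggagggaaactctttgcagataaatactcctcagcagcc

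**Figure D3:**
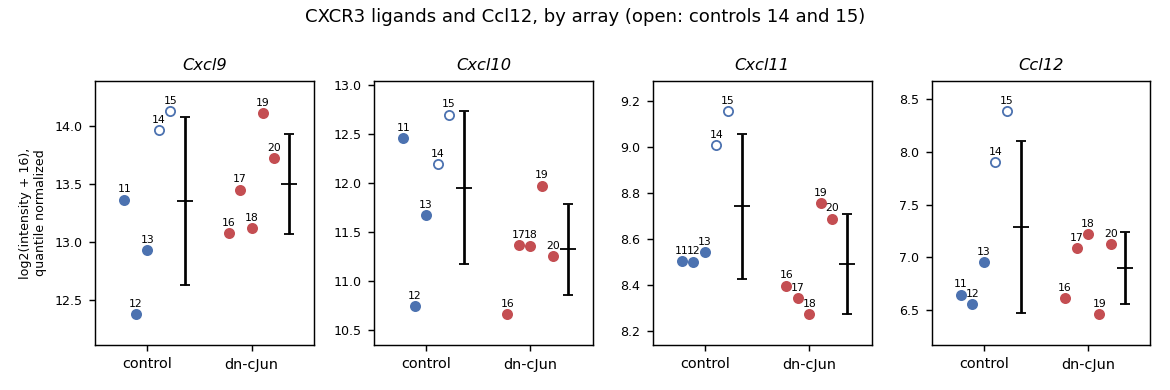
Log2 signal of the 3 CXCR3 ligands and Ccl12 by array, with the mean and SD of each group (n = 5). Open points are controls 14 and 15, which are the 2 highest controls for Cxcl9, Cxcl11 and Ccl12. For Cxcl10, control 15 is the highest control.

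Ligands that act on eosinophils and type 2 T cells were mostly dim. Ccl24, an eosinophil attractant that Kupffer cells make, was at 7.96, 7.67, 8.65, 8.47 and 9.26 in controls 11 to 15 and 8.14, 8.29, 7.76, 7.56 and 7.84 in arrays 16 to 20. Control 15 was the highest, and controls 11 and 12 lay within the other group. The difference was -0.48 (SE 0.26, limma adjusted p = 0.406), and -0.18 (SE 0.24) without controls 14 and 15. Ccl17 and Ccl22, the ligands of CCR4, were below the test level, with differences of 0.47 and 0.63.

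Ligands that serve homing or are made constantly in tissue lay on both sides of 0, with 4 of 8 tested genes lower and 4 higher. Cxcl12, which keeps stem cells and lymphocytes in place through CXCR4, was at 11.81, 12.23, 12.25, 12.06 and 12.07 in controls 11 to 15 and 12.38, 12.30, 12.27, 11.98 and 12.21 in arrays 16 to 20. Control 11 was the lowest, and the groups overlapped. The difference was 0.14 (SE 0.10, 95% interval -0.06 to 0.35, limma adjusted p = 0.523). A second probe set, with a mean of 12.14 against 12.16, gave 0.33 (SE 0.11, 95% interval 0.09 to 0.57). Its unadjusted p was 0.00943 in the limma fit of every probe set. Cxcl13, which draws B cells into follicles, was at 7.85, 7.38, 7.30, 7.18 and 6.84 in controls 11 to 15 and 7.04, 6.89, 7.20, 6.70 and 5.93 in arrays 16 to 20. Its difference was -0.56 (SE 0.26, limma adjusted p = 0.343), with array 20 the lowest, and -0.74 (SE 0.30) without controls 14 and 15.

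Ccl27a and Ccl25, ligands for skin- and gut-homing T cells, had the largest positive differences among the 23 tested ligands. Ccl27a was at 8.21 to 9.06 in the controls, against 8.50 to 9.29 in the other group, a difference of 0.35 (SE 0.18). Ccl25 was at 0.39 (SE 0.21) by one probe set and 0.01 (SE 0.24) by the other. Cxcl16, the membrane-bound ligand of CXCR6, was at 8.36 to 9.29 in the controls, against 8.55 to 8.98 in the other group, a difference of 0.01 (SE 0.17). The second Cxcl16 probe set gave -0.07 (SE 0.16). Cx3cl1, the membrane-bound ligand of Cx3cr1, was at -0.20 (SE 0.28), Cxcl14 at -0.22 (SE 0.19) and Ccl28 at -0.14 (SE 0.30).

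No difference in a receptor was detectable with these arrays, and the precision varied between genes. Ccr2, the monocyte receptor of Ccl2, was at 8.20, 7.75, 8.14, 8.14 and 7.76 in controls 11 to 15 and 8.10, 7.70, 7.64, 7.82 and 8.02 in arrays 16 to 20. The groups overlapped, with a difference of -0.14 (SE 0.15, 95% interval -0.46 to 0.18, limma adjusted p = 0.707). The other 3 Ccr2 probe sets gave -0.05, 0.20 and -0.33. Ccr1 was at -0.08 (95% interval -0.51 to 0.35) and Cx3cr1, which marks patrolling monocytes, at 0.11 (-0.29 to 0.51). The second Cx3cr1 probe set gave -0.22 (-1.16 to 0.73).

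Cxcr6, a receptor of liver NK and T cells, was at -0.09 (-0.61 to 0.43), and its second probe set, below the test level, gave 0.64 (0.03 to 1.25, unadjusted p = 0.0404 in the limma fit of every probe set). Cxcr4, the receptor of Cxcl12, had the same mean within 0.06 but spread from 5.15 to 7.27 among the arrays labelled dn-cJun against 6.09 to 6.87 in the controls. Its interval of -0.90 to 0.77 includes a difference of the size seen for Ccl6. Ccr6, the receptor of Ccl20, was the tested member nearest to the test level, with a mean of 6.33. It was at 6.83, 5.58, 6.47, 5.47 and 6.10 in controls 11 to 15 and 5.35, 6.54, 6.87, 6.54 and 7.54 in arrays 16 to 20, a difference of 0.48 (SE 0.40).

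The 18 genes below the test level were 9 ligands and 9 receptors. The ligands were Ccl1, Ccl11, Ccl17, Ccl20, Ccl22, Cxcl3, Cxcl5, Cxcl15 and Cxcl17, and the receptors Ccr3, Ccr4, Ccr7, Ccr8, Ccr9, Ccr10, Ccr1l1, Cxcr2 and Cxcr5. Their differences ran from -0.82 for Ccr10 to 0.63 for Ccl22, 8 below 0 and 10 above, and the groups overlapped in each of the 18. Cxcl17, a mucosal chemokine, was the nearest to the level with a mean of 5.97. It was at 6.66, 5.05, 6.02, 6.03 and 6.47 in controls 11 to 15 and 6.91, 7.04, 4.37, 6.68 and 4.47 in arrays 16 to 20. When every gene was tested without that level, no member passed among 48, where 0.533% of all genes did. Ccl2, Ccl6, Ccl7, Ccl9, Cxcl1 and Cxcl2 again had an unadjusted p under 0.05 as lower, where 6.1% of all genes did.

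Other genes of chemokine signalling, from 3 lists, also gave no call, with 69 tested and 0 past the threshold (limma). With the values as deposited 4 of them passed as lower (limma), Icam1, Nfkbia, Rap1b and Rela, where 3.67% of all genes passed as lower and 81.7% were below 0. Among chemokines and receptors outside the naming rule, 13 were tested, 8 below 0 and 5 above and 0 at an unadjusted p under 0.05, with a median of -0.03. The smallest p of that list was that of Ackr3, a scavenger receptor of Cxcl12, at -0.50 (SE 0.27, limma adjusted p = 0.415). Among genes of receptor signalling and cell migration, 16 of 23 were below 0, 4 of them at an unadjusted p under 0.05, and 7 above, 2 of them so, with a median of -0.09. Icam1, the adhesion molecule that holds leukocytes on endothelium, was at 11.07, 10.64, 10.55, 11.01 and 11.22 in controls 11 to 15 and 10.04, 10.22, 10.26, 10.73 and 10.71 in arrays 16 to 20, with overlap through controls 12 and 13. Its difference was -0.50 (SE 0.16, limma adjusted p = 0.158).

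Among inducers of chemokine genes, 24 of 33 were below 0, 6 of them at an unadjusted p under 0.05, and 9 above, 1 of them so, with a median of -0.10. Over all genes tested, 49.7% were below 0, and 7.47% were lower and 7.42% higher at that p. Nfkbia, the NF-kB inhibitor that NF-kB itself induces, had the smallest p. It was at 13.13, 13.50, 13.27, 13.56 and 13.73 in controls 11 to 15 and 12.89, 13.04, 12.99, 13.18 and 13.21 in arrays 16 to 20, with overlap only through control 11. The difference was -0.38 (SE 0.11, limma adjusted p = 0.129). Chosen after its values were seen, Tnf, the cytokine that induces Ccl2 and Cxcl2, was at -0.97 (SE 0.39, limma adjusted p = 0.262). Ifng, the inducer of the CXCR3 ligands, was at -0.14 (SE 0.34).

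Markers of cells that make or follow chemokines were read beside these genes, since whole liver was measured and fewer cells of a type cannot be told apart from less RNA per cell. Of 11 tested Kupffer cell and macrophage markers 8 lay below 0, where 49.7% of all genes tested did, and Timd4 was below the test level. Past the threshold as lower were 2 of the 11, where 0.432% of all genes tested were. They were Lyz2 (lysozyme), lower by 0.70, and Cd5l, a secreted macrophage protein, lower by 0.57 (limma adjusted p = 0.0294 and 0.0323). Adgre1 (F4/80) and Clec4f, which define Kupffer cells, were at -0.11 (SE 0.11) and -0.15 (SE 0.22). The mean of the 11 markers, each centred over the arrays, was -0.21 to 0.36 in the controls, highest in controls 14 and 15, and -0.18 to 0.04 among the arrays labelled dn-cJun. The part of macrophage content in the differences of Ccl2, Ccl6, Ccl7, Ccl9 and Ccl24 was not tested.

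Neutrophil markers (8 tested) gave -1.34 to 1.06 in the controls, lowest in control 12, and -0.65 to 0.97 in the other group, with none past the threshold. Monocyte markers (5 tested, Ccr2 among them) gave -0.27 to 0.35 and -0.31 to 0.19. Of 4 tested dendritic cell markers 2 lay below 0 and 2 above, from -1.26 to 0.49 with a median of 0.02. The lowest was Cd83, a marker of activation (limma adjusted p = 0.0323). It alone of the 4 passed the threshold, where 0.432% of all genes tested passed as lower. The mean of the 4 was -0.39 to 0.47 in the controls, against -0.31 to 0.39 in the other group. T cell markers (6 tested) gave -0.18 to 0.33 and -0.33 to 0.62, highest in array 19, and NK cell markers (6 tested) -0.60 to 0.29, lowest in control 12, and -0.16 to 0.23. Array 19 was also the highest of its group for Cxcl9, Cxcl10, Cxcl11, Ccl3, Ccl4 and Ccl5. The same held for Ccl2, Ccl7, Cxcl1, Cxcl16, Cx3cl1 and Cxcr4 among the tested members. A link of these signals to T cells was not tested. Cd3e, Cd4 and Ncr1, which define T and NK cells, were below the test level.

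B and plasma cell markers (7 tested) gave -0.25 to 0.04 in the controls, against -0.12 to 0.23 in the other group, and stellate cell and fibroblast markers (9 tested) -0.24 to 0.28 and -0.19 to 0.03. Endothelial markers (10 tested) gave -0.13 to 0.01 and -0.02 to 0.13, bile duct markers (4 tested) 0.10 to 0.26 and -0.65 to 0.32, and hepatocyte markers (9 tested) -0.23 to 0.07 and -0.04 to 0.16. No marker of these 4 non-hepatocyte lists or of the hepatocyte list passed the threshold. The ranges of the groups overlapped in each of the 11 lists.

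**Figure D4:**
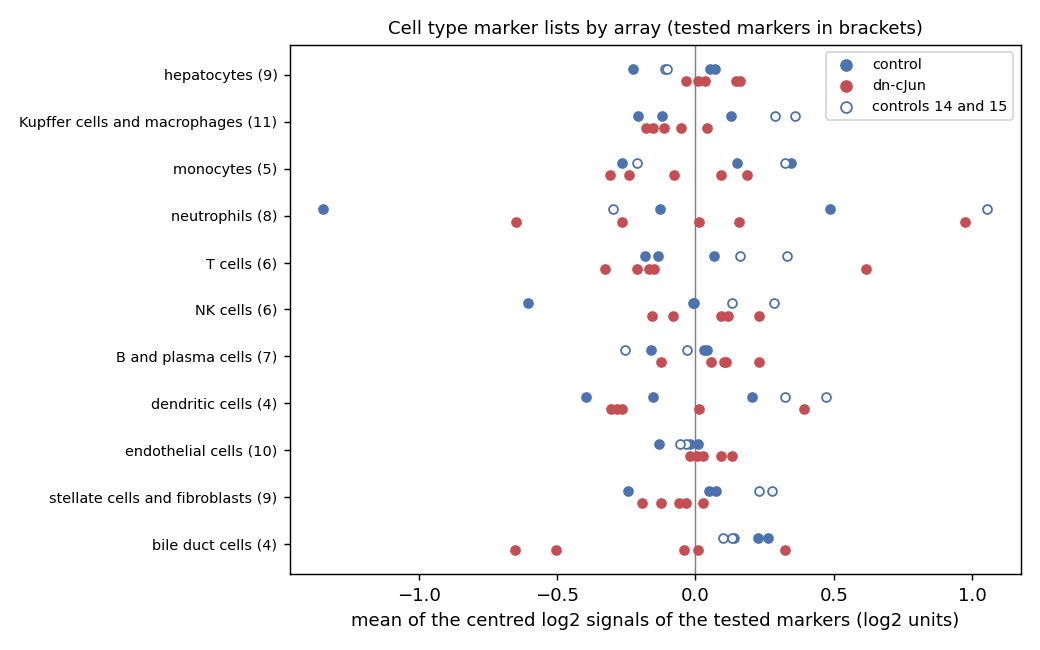
Mean centred log2 signal of the tested markers of 11 cell types, by array, with the number of tested markers in brackets. Open points are controls 14 and 15, the 2 highest arrays for Kupffer cell and macrophage markers at 0.36 and 0.29.

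The size and at times the sign of the members' differences moved with the arrays and the scaling used. Without controls 14 and 15, 20 members lay below 0 and 10 above, where 48.8% of all genes were below, with a median of -0.15 beside 0.0068 for all genes, and none passed, where 0.408% of all genes did. Ccl2, Cxcl2, Ccl6, Ccl9 and Cxcl13 were then lower at an unadjusted p under 0.05, where 6.62% of all genes were. With the values as deposited, without normalization, the median of all genes was itself -0.19 and 81.7% of all genes were below 0. Of the members 26 were lower there, and Ccl2, Cxcl2, Ccl9 and Ccl6 passed as lower, where 3.67% of all genes did (limma adjusted p = 0.0125, 0.0279, 0.0328 and 0.0379). With array medians made equal, Ccl2 alone passed, at -1.05 (limma adjusted p = 0.0354), where 0.353% of all genes were lower. Ccl2 was also the one member to pass as lower with a pseudocount of 64 (0.494% of all genes), with the test level at the 60th percentile (0.742%) and with robust variance estimates (0.55%). At the 60th percentile only 17 members were tested, and Cxcl2 and Ccl7 were below that level. Ccl2 and Cxcl2 passed with array weights (0.667%) and at an adjusted p threshold of 0.1 (1.02%), and Ccl2 and Ccl6 without control 12 (0.8%).

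**Figure D5:**
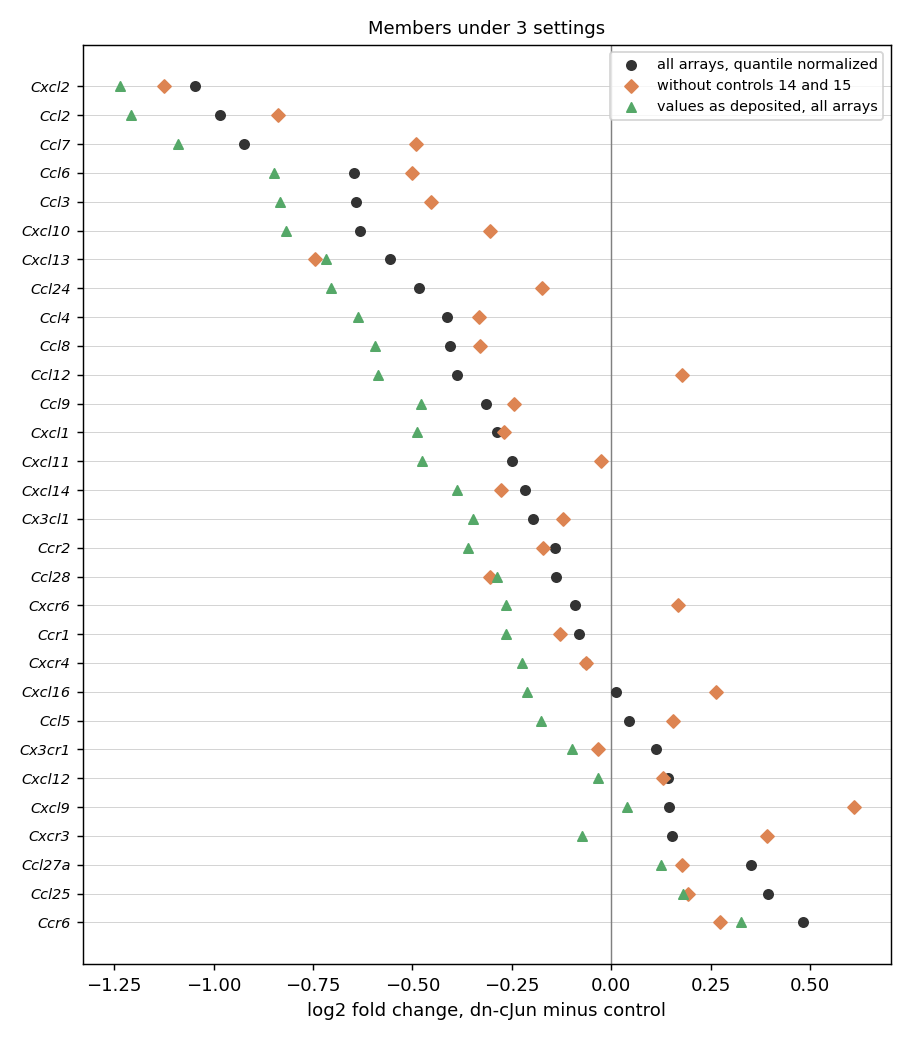
Difference in log2 signal of the 30 tested members under 3 settings: all arrays with quantile normalization (circles), without controls 14 and 15 (diamonds) and the values as deposited (triangles). Cxcl2 and Ccl2 are the lowest under each, while Ccl12 is at -0.39 with all arrays and 0.18 without controls 14 and 15.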

How the data were processed

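The deposited table holds probe set intensity on a linear scale for 10 arrays, as the authors' values. The software that made it was not given in the sources used here. Array columns share a trimmed mean up to a further factor per array of 0.887 to 1.22, whose purpose is not stated. Of 45101 probe sets, 64 controls were left out after normalization. Platform annotation gave 34945 a single symbol, 932 several and 9160 none.

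Values were taken as log2(intensity + 16) and quantile normalized. Where several probe sets read a gene, the brightest on average stood for it. Genes under the 40th percentile were left out. Groups were compared with limma 3.58.1 in R 4.3.3 (lmFit, then eBayes with trend). Tests were two-sided, and p-values were adjusted by Benjamini-Hochberg over 12736 genes with a threshold of 0.05. Intervals are unadjusted. Values of further probe sets come from a fit of every probe set. Precision is limited by how few arrays there are. The labels give 1 mouse per array. The fit was tested on simulated data with 5 arrays per group. It recovered 33.9% of genes changed by a log2 difference of 0.5 and 73.9% of those changed by 1. Smaller differences can therefore go uncalled.

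Members and lists were chosen with earlier results of these data known. Values in every array are given for Cxcl9, Cxcl10, Ccl2, the 8 smallest p, the brightest gene of each role and the genes nearest the filter. Of each pathway list the gene with the smallest p is named. Other genes were chosen after their values were seen. Figures were drawn with matplotlib 3.10.9.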

Additional observations from a re-analysis of the deposited data

Results flagged for a closer look

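In groups of 5 arrays, a single array stood further from the rest than Dixon's limit of 0.71 of the group's range in 5 of 60 groups of tested members, where chance gives about 1 in 20. Control 12 was low for Ccl2, at 8.36 against 8.97 to 9.21 in the other controls. It was also low for Ccl6, at 10.08 against 10.95 to 11.21. Control 15 was low for Ccl25, at 6.66 against 7.48 to 7.81. Array 18 labelled dn-cJun was low for Ccl7, at 5.34 against 6.29 to 6.55. Array 20 was low for Cxcl14, at 6.41 against 6.93 to 7.13.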

How the results depend on the processing

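The count of members past the threshold was 0 and became 4 as lower with values left as deposited. There 3.67% of all genes passed as lower and 81.7% were below 0. The count was 1 with array medians equalized (0.353% of all genes lower), a pseudocount of 64 (0.494%) and robust eBayes (0.55%). With the filter at the 60th percentile it was 1 of 17 members tested (0.742%). It was 2 with array weights (0.667%) and at an adjusted p threshold of 0.1 (1.02%). It was 0 to 2 with 1 array left out, the 2 (Ccl2 and Ccl6) without control 12, where 0.8% of all genes passed as lower. No member passed as higher in any of the 25 alternatives. The count of other pathway genes lower was 4 with the values as deposited (3.67% of all genes) and 0 to 1 with 1 array left out. The 1, Rap1b, passed without control 12 (0.8% of all genes). Cxcl9 turned to -0.046 with the mean of its probe sets and to -0.0037 with array weights, and ran from -0.10 to 0.34 with 1 array left out. With the values as deposited, 81.7% of all genes were below 0 and 5 members turned below 0. Cxcl16 turned to -0.21, Ccl5 to -0.18, Cx3cr1 to -0.098, Cxcr3 to -0.073 and Cxcl12 to -0.034. The causes were not tested. No paired analysis was possible because the groups share no replicate numbers. Of the 16 receptor genes 9 were below the filter and were not tested.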
